A study of Homo sapiens with 15 samples.

Results

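Metallothioneins and the zinc exporter SLC30A1 were followed across 15 whole-transcript Affymetrix arrays of C42B, a human prostate cancer cell line derived from LNCaP that grows without testicular androgen. The members were the probe sets whose platform gene symbol was MT1A, MT1E, MT1F, MT1G, MT1H, MT1M, MT1X, MT2A, MT3 or SLC30A1. Of these 10 genes, 9 had a probe set, 1 each, among the 17687 genes tested, and MT1A is not analysed here. All cells were treated for 6 h, in 6 groups: 10 µM enzalutamide with 15 µM PF-543 (3 arrays), 10 µM enzalutamide with 15 µM ABC294640 (3 arrays), 15 µM PF-543 alone (3 arrays), 15 µM ABC294640 alone (1 array), 10 µM enzalutamide alone (2 arrays) and 0.125% dimethyl sulfoxide, the vehicle DMSO (3 arrays). Enzalutamide blocks the androgen receptor, PF-543 inhibits sphingosine kinase 1 and ABC294640 (opaganib) inhibits sphingosine kinase 2. The DMSO content of the drug wells is not in the labels. Nor do they state that replicates came from different cultures, and the p-values below rest on the spread among these arrays, part of which may be technical.

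Metallothioneins are small proteins rich in cysteine that bind zinc, copper and cadmium. Their genes are switched on by excess zinc through MTF1, a transcription factor that binds metal response elements in their promoters, and the same factor drives SLC30A1, which carries zinc out across the plasma membrane. Glucocorticoids and oxidative stress are further known inducers of MT2A and of MT1 genes. Healthy prostate epithelium is known for its high zinc content, which prostate cancers largely lose.

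The 8 measured metallothioneins lie in 1 cluster on chromosome 16 in the RefSeq annotation, in the order MT3, MT2A, MT1E, MT1M, MT1F, MT1G, MT1H and MT1X, while SLC30A1 is on chromosome 1. RefSeq promoter windows (GRCh38.p14) were at hand for 4 of the 10 members. The 250 bases before the annotated transcript start of each are shown because promoter metal response elements are the known route by which such genes answer zinc. Whether the marked letters act as such elements was not tested. Capitals mark the metal response element core, TGCACNC or TGCGCNC on either strand, where N is any base.
MT2A, chr16:56608334-56608583, plus strand: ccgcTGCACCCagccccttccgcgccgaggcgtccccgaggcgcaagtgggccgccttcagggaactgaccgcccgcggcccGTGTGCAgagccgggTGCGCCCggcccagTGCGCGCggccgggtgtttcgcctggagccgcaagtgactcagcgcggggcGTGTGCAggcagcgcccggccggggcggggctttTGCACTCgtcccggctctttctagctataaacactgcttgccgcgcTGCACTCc
MT1H, chr16:56669564-56669813, plus strand: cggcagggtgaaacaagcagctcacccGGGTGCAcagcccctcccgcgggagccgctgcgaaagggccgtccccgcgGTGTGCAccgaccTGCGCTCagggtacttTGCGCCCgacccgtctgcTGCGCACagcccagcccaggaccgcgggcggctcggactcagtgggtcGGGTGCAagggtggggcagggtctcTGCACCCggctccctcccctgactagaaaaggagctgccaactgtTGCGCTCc
MT1X, chr16:56682220-56682469, plus strand: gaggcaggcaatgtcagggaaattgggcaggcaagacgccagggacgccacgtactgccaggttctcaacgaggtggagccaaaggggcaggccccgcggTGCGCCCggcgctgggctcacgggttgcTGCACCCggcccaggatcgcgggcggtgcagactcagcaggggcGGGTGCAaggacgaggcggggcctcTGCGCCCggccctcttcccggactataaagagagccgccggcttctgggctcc
SLC30A1, chr1:211579162-211579411, minus strand: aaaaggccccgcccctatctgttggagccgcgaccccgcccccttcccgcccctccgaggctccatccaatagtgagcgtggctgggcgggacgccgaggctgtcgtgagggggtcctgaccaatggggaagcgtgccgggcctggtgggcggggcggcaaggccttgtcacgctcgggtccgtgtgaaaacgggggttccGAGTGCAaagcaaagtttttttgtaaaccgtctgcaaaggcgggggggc

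The core occurred 7 times upstream of MT2A, 8 times upstream of MT1H, 4 times upstream of MT1X and 1 time upstream of SLC30A1. Among 35116 promoter windows of the same length, 0.0313% held 7 or more, 0.0171% held 8 or more, 0.37% held 4 or more and 24.8% held at least 1. The antioxidant response element core, TGACNNNGC on either strand, was found 1 time each upstream of MT2A, MT1X and SLC30A1, without overlap with a metal response core, and at least 1 time in 10.9% of all windows. These letters did not occur upstream of MT1H. A match is a description of the letters, and no binding was measured here.

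**Figure D1:**
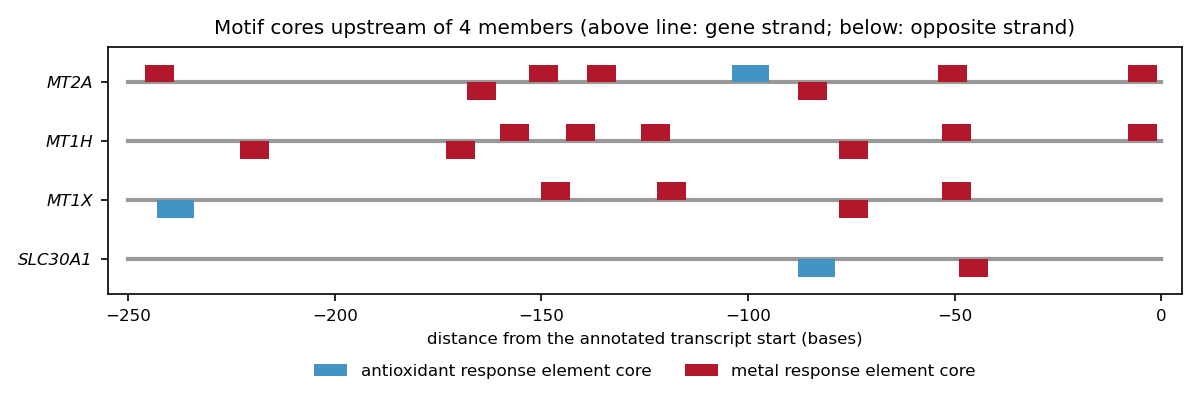
Positions of the metal response element core (red) and the antioxidant response element core (blue) in the 250 bases upstream of MT2A, MT1H, MT1X and SLC30A1; the horizontal axis is the distance in bases from the annotated transcript start, boxes above a line lie on the gene's strand and boxes below it on the opposite strand. MT2A and MT1H carry 7 and 8 metal response cores along the window, MT1X carries 4 and SLC30A1 carries 1.

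Values are log2 expression per probe set, so a difference of 1 is a doubling. Array medians lay between 6.71 and 6.76 and first quartiles between 4.57 and 4.69. Levels were not compared between genes, since probe sets differ in brightness for the same amount of RNA. All 7 measured luminal prostate markers had means above the array median, among them KLK3 at 15.64 to 16.23 over the 15 arrays, and 10 measured markers of basal, blood, vessel and fibroblast cells averaged 5.66 to 6.00 per array. Of these 10, 1 lay above the array median, the fibroblast collagen gene COL1A2 at 8.65 to 9.62, and its mean was lower than DMSO in every drug group, by log2 -0.26 with PF-543 to -0.82 with ABC294640, none past the threshold. Its part in the members' differences was not tested. Among the luminal markers, with enzalutamide against DMSO the androgen-regulated protease gene TMPRSS2 fell (log2 -1.06, limma adjusted p = 0.000604) and the homeobox gene HOXB13 rose (0.75, adjusted p = 0.00578), and 5 did not pass. In each combination against DMSO, TMPRSS2, KLK2 and KLK3 fell and HOXB13 rose, and 3 did not pass. On the first principal component, with 15.3% of the variance, the 12 treated arrays lay between -11.6 and 0.0296 and the 3 DMSO arrays between 18.9 and 24.8, so DMSO stood apart from every drug group. Each drug's difference from DMSO is therefore given beside the difference of the same drug on top of another drug, which uses no DMSO array, and the part of the DMSO arrays in the differences from DMSO was not tested. The 5 comparisons with DMSO share the same 3 control arrays.

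No member passed the test (limma, adjusted p below 0.05 over all 17687 genes) in any of the 13 comparisons. The members' group means differed little: the gap between the highest and the lowest of the 6 group means was 0.21 for MT1X, 0.27 for MT1H, 0.35 for MT1M, 0.36 for MT1F, 0.40 for MT2A, 0.47 for MT3, 0.48 for MT1G, 0.55 for MT1E and 0.60 for SLC30A1, all on the log2 scale. The enzalutamide group had the highest mean for 6 of the 8 metallothioneins, all but MT1H, which was highest with enzalutamide plus ABC294640, and MT3, which was highest with DMSO. DMSO had the lowest mean for MT1E, MT1G, MT1H, MT1M and MT1X. The single ABC294640 array was lowest for MT1F, MT2A and SLC30A1. For no member did any 2 groups among those compared differ beyond the test's threshold, so the order of the groups is a description. Treated arrays above the highest DMSO array numbered 11 of 12 for MT1E, 10 for MT1M, 8 for MT1G, 7 for MT1H and MT2A, 6 for MT1X and SLC30A1, 2 for MT1F and 0 for MT3. Of all genes, 4.57% had at least 11 such arrays, 7.6% at least 10, 14.3% at least 8, 18.6% at least 7 and 23.5% at least 6.

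**Figure D2:**
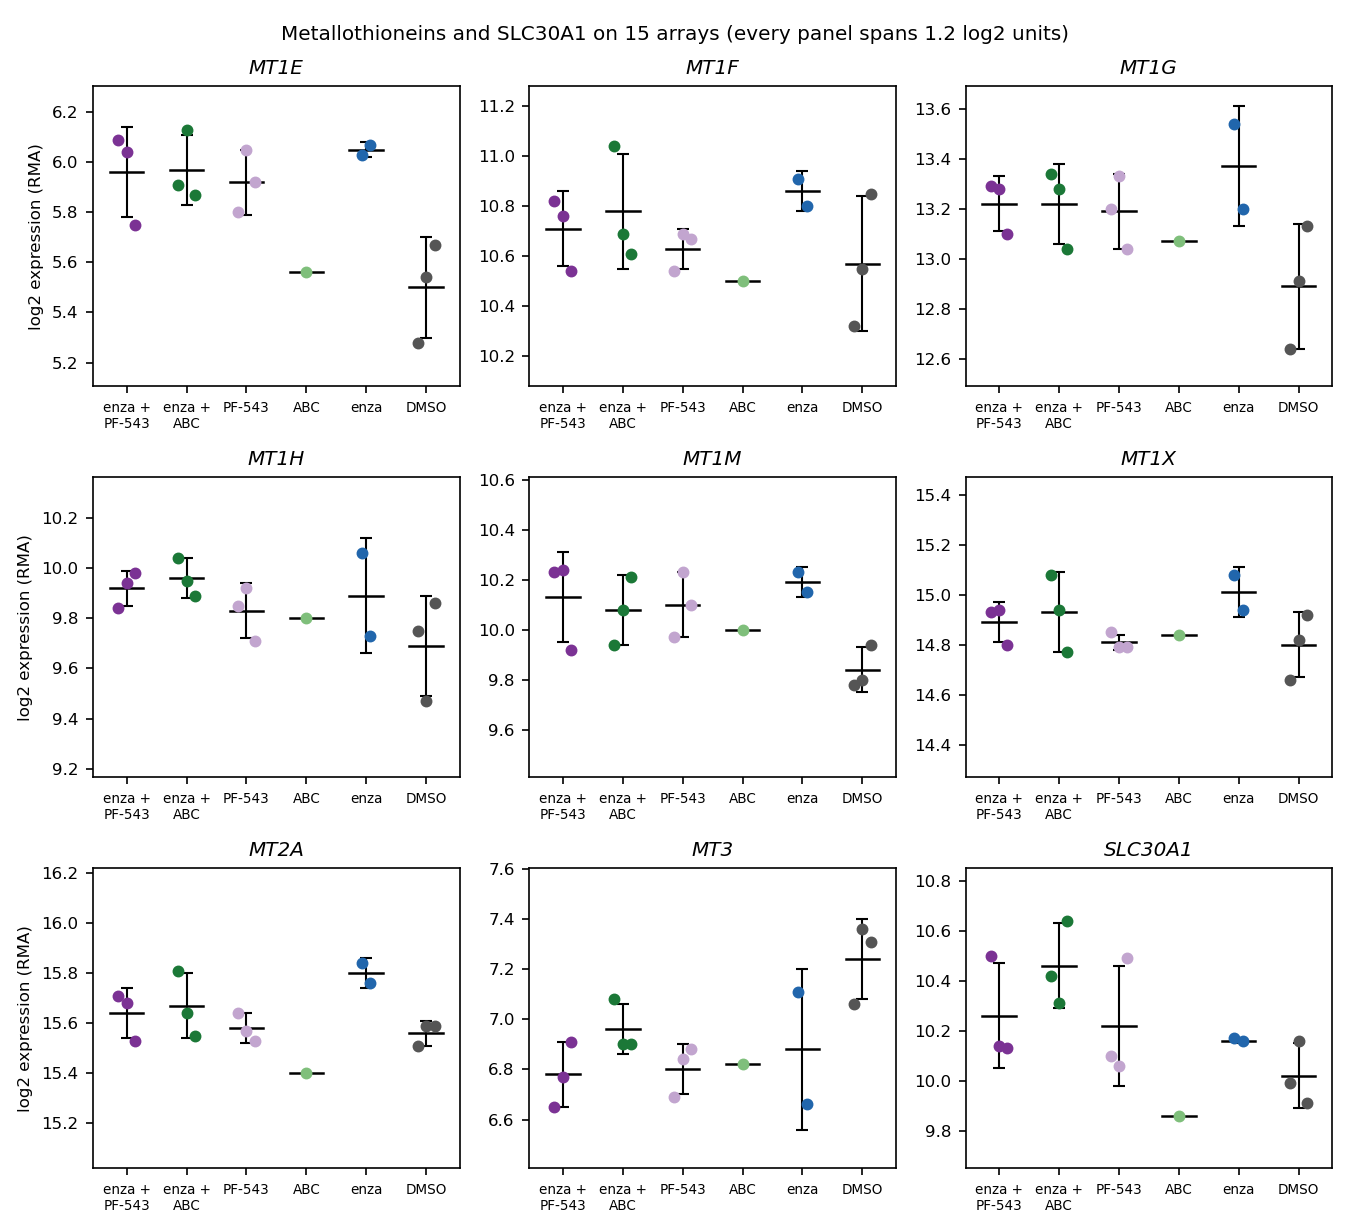
Log2 expression of each of the 9 measured members (vertical axis) in the 6 groups (horizontal axis; enza is enzalutamide and ABC is ABC294640); points are arrays, horizontal bars are group means and error bars are the SD of groups with more than 1 array. The DMSO group has the lowest mean of MT1E and the highest mean of MT3, and SLC30A1 reaches its highest value, 10.64, with enzalutamide plus ABC294640.

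MT1E, a metal-binding isoform of the MT1 group, was the member with the smallest p against DMSO for enzalutamide and for both combinations. Its values were 6.09, 6.04 and 5.75 with enzalutamide plus PF-543, 5.91, 6.13 and 5.87 with enzalutamide plus ABC294640, 5.80, 6.05 and 5.92 with PF-543, 5.56 with ABC294640, 6.03 and 6.07 with enzalutamide, against 5.28, 5.54 and 5.67 with DMSO. Of the 12 treated arrays, 11 lay above the highest DMSO array, and the ABC294640 array was the exception. All MT1E values, from 5.28 to 6.13, lay below the lowest array median, 6.71, and above the highest first quartile, 4.69. Whether MT1E lay above background was not tested.  MT1E was 1.47-fold higher with enzalutamide than with DMSO (log2 0.55, SE 0.14, 95% interval 0.25 to 0.86, limma adjusted p = 0.146). It was also higher than DMSO by log2 0.46 with enzalutamide plus PF-543 (adjusted p = 0.079), by 0.47 with enzalutamide plus ABC294640 (adjusted p = 0.104) and by 0.43 with PF-543 (adjusted p = 0.141), none of which passed. Comparisons without DMSO arrays gave MT1E smaller values where both groups had replicates. Enzalutamide on top of PF-543 stood at log2 0.04 (95% interval -0.24 to 0.31), and PF-543 on top of enzalutamide at -0.09 (-0.40 to 0.22). Enzalutamide on top of the single ABC294640 array stood at 0.41 (0.02 to 0.80, adjusted p = 0.698).

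MT3, the metallothionein first known as a growth inhibitory factor of the brain, lay the other way. Over all groups it ran from 6.65 to 7.36, near the array medians of 6.71 to 6.76. Whether MT3 lay above background was not tested. Its values were 6.65, 6.77 and 6.91 with enzalutamide plus PF-543, 7.08, 6.90 and 6.90 with enzalutamide plus ABC294640, 6.69, 6.84 and 6.88 with PF-543, 6.82 with ABC294640, 7.11 and 6.66 with enzalutamide, against 7.06, 7.36 and 7.31 with DMSO. Of the treated arrays, 10 of 12 were below the lowest DMSO array, with enzalutamide replicate 1 and enzalutamide plus ABC294640 replicate 1 above it, and 7.1% of all genes had at least 10 such arrays. MT3 differed from DMSO by log2 -0.47 with enzalutamide plus PF-543 (SE 0.13, limma adjusted p = 0.0814), by -0.44 with PF-543 (SE 0.13, adjusted p = 0.136), by -0.42 with ABC294640 (SE 0.18, adjusted p = 0.496), by -0.36 with enzalutamide (SE 0.14, adjusted p = 0.327) and by -0.28 with enzalutamide plus ABC294640 (SE 0.13, adjusted p = 0.305). Without DMSO arrays the 4 differences were -0.11 for PF-543 on top of enzalutamide, 0.08 for ABC294640 on top of enzalutamide, -0.03 for enzalutamide on top of PF-543 and 0.14 for enzalutamide on top of ABC294640. The enzalutamide arrays lay far apart for MT3, at 7.11 and 6.66. Without enzalutamide replicate 1 and without replicate 2, enzalutamide differed from DMSO by -0.58 and -0.13, PF-543 on top of enzalutamide stood at 0.12 and -0.33, and ABC294640 on top of enzalutamide at 0.30 and -0.15.

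For enzalutamide against DMSO, 8 of 9 members had a log2 difference above 0 and MT3 lay below it. PF-543 against DMSO also had 8 of 9 above 0. Whether block of the androgen receptor had a part in the enzalutamide differences was not tested. The median over the members was 0.24, against -0.01 over all genes. MT1G, another MT1 isoform, had 13.54 and 13.20 with enzalutamide, against 12.64, 12.91 and 13.13 with DMSO (log2 0.48, SE 0.16, limma adjusted p = 0.231). MT1M had 10.23 and 10.15 with enzalutamide, against 9.78, 9.80 and 9.94 with DMSO (log2 0.35, SE 0.13, adjusted p = 0.264). MT2A, a widely expressed metallothionein, had 15.84 and 15.76 with enzalutamide, against 15.51, 15.59 and 15.59 with DMSO (log2 0.24, SE 0.10, adjusted p = 0.355). In these 3 genes both enzalutamide arrays lay above all DMSO arrays. MT1X was at log2 0.21, MT1F at 0.28, MT1H at 0.20 and SLC30A1 at 0.14, with adjusted p of 0.468, 0.496, 0.564 and 0.744.

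By the adjusted p, 0 of 9 members passed for enzalutamide against DMSO, where 0.311% of all genes did. At an unadjusted p below 0.05 there were 5 of 9, with MT1E, MT1G, MT1M and MT2A higher and MT3 lower, where 12.9% of all genes were past that line. The arrays of the 2 groups did not overlap, with enzalutamide higher, for 5 members (MT1E, MT1G, MT1M, MT1X and MT2A), where 13.5% of all genes showed this, and for 0 members with enzalutamide lower, where 14.6% did. MT1 genes and MT2A may cross-hybridise, several of them deviated together on replicate arrays, and the members were chosen with earlier results known. Here and below, such counts are therefore not of independent genes and test no enrichment. A limma fit with a robust and trended prior called 1 member, MT1G, at log2 0.48 (SE 0.11, adjusted p = 0.0279), where 1.5% of all genes passed under that prior, and over all the alternatives its adjusted p ran from 0.0279 to 0.588.

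Enzalutamide added to PF-543 moved no member's mean by more than log2 0.09. MT1G had 13.29, 13.28 and 13.10 with enzalutamide plus PF-543, against 13.20, 13.33 and 13.04 with PF-543, and the groups overlapped. MT2A had 15.71, 15.68 and 15.53 with both drugs, against 15.64, 15.57 and 15.53 with PF-543. The 9 members lay between log2 -0.03 (MT3) and 0.09 (MT1H), with a median of 0.04 (0.02 to 0.11 when 1 array was left out) against 0.01 over all genes, and 0 passed where 0.311% of all genes did (limma, smallest adjusted p = 0.899). At an unadjusted p below 0.05 there were 0, where 8.27% of all genes were past that line. The groups overlapped for all 9 members, where 7.6% of all genes did not overlap with the combination higher and 6.99% with it lower. The 95% intervals of all 9 lay within -0.31 to 0.39, so a difference larger than 0.39 in either direction lay outside every one of them. On top of the single ABC294640 array, enzalutamide gave values above 0 for 9 of 9 members, with a median of 0.16, 0 passing where 0.0792% of all genes did and 2 (MT1E and SLC30A1) at an unadjusted p below 0.05, where 6.95% of all genes were past that line. The enzalutamide plus ABC294640 arrays were all above that array for 6 members, where 25.8% of all genes showed this, and all below it for 0, where 24.2% did.

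With PF-543 alone, MT1X and MT2A averaged within log2 0.02 of DMSO, while MT1E, MT1G, MT1M and SLC30A1 had means higher by 0.20 to 0.43 and MT3 a lower one, none past the threshold. MT1G had 13.20, 13.33 and 13.04 with PF-543, against 12.64, 12.91 and 13.13 with DMSO, and the groups overlapped (log2 0.30, adjusted p = 0.337). MT1X had 14.85, 14.79 and 14.79 with PF-543, against 14.66, 14.82 and 14.92 with DMSO (log2 0.01, 95% interval -0.21 to 0.23). MT2A had 15.64, 15.57 and 15.53 with PF-543, against 15.51, 15.59 and 15.59 with DMSO (log2 0.02, 95% interval -0.18 to 0.21). MT1M was 9.97, 10.23 and 10.10 with PF-543 and did not overlap DMSO at 9.78, 9.80 and 9.94 (log2 0.26, SE 0.11, limma adjusted p = 0.297). The median over the members was 0.13, with 8 of 9 above 0, and 6 of 9 after quantile or cyclic loess normalization, when MT1X and MT2A turned below 0. That median was 0.05 without DMSO replicate 2, 0.06 without PF-543 replicate 3 and 0.20 without DMSO replicate 3. None of the 9 passed, where 0.565% of all genes did, and 3 had an unadjusted p below 0.05 (MT1E, MT1M and MT3), where 15.5% of all genes did. Non-overlapping groups were seen for 2 members higher, where 10.2% of all genes showed this, and for 1 lower, MT3, where 10% did.

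With PF-543 added to enzalutamide, 7 of 9 members lay below 0, among them MT2A at log2 -0.16 (95% interval -0.38 to 0.06), and MT1H at 0.03 and SLC30A1 at 0.09 lay above it; MT1H turned below 0 after quantile normalization. MT2A had 15.71, 15.68 and 15.53 with the combination, against 15.84 and 15.76 with enzalutamide, and was the 1 member whose groups did not overlap with the combination lower, where 11.2% of all genes showed this. None passed where 0.0283% of all genes did (limma, smallest adjusted p = 0.761), and 0 had an unadjusted p below 0.05, where 7.83% of all genes did. No member lay wholly above enzalutamide alone, where 12.8% of all genes did. Whether the PF-543 difference depended on enzalutamide was tested as an interaction. MT1E gave log2 -0.52 (SE 0.19, adjusted p = 0.541) and MT1G -0.44 (SE 0.21, adjusted p = 0.634), with 0 of 9 members and 0% of all genes past the threshold and 1 member, MT1E, at an unadjusted p below 0.05, where 8.07% of all genes were past that line. The DMSO arrays enter this interaction.

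SLC30A1, the zinc exporter of the plasma membrane, had its highest mean with enzalutamide plus ABC294640. Its values were 10.42, 10.31 and 10.64 with that combination, 10.50, 10.14 and 10.13 with enzalutamide plus PF-543, 10.10, 10.06 and 10.49 with PF-543, 9.86 with ABC294640, 10.17 and 10.16 with enzalutamide, against 9.99, 10.16 and 9.91 with DMSO. All 3 arrays of the combination lay above all enzalutamide, ABC294640 and DMSO arrays, and they overlapped the groups with PF-543. The combination differed from DMSO by log2 0.44 (SE 0.14, 95% interval 0.13 to 0.74, limma adjusted p = 0.165), from ABC294640 by 0.60 (SE 0.20, adjusted p = 0.506) and from enzalutamide by 0.29 (SE 0.16, adjusted p = 0.786). Over the alternatives the adjusted p against DMSO ran from 0.0503 to 0.357. In the same comparison with DMSO, MT2A stood at 0.10 and MT1X at 0.13. For enzalutamide plus ABC294640 against DMSO 0 of 9 members passed, where 0.701% of all genes did, and 5 had an unadjusted p below 0.05 (MT1E, MT1G, MT1H and SLC30A1 higher, MT3 lower), where 16% of all genes did. The groups did not overlap for 3 members with the combination higher (MT1E, MT1H and SLC30A1), where 9.48% of all genes showed this, and for 0 with it lower, where 9.75% did.

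For ABC294640 added to enzalutamide, 0 of 9 members and 0% of all genes passed (limma, smallest adjusted p among the members 0.786), and 0 members had an unadjusted p below 0.05, where 6.78% of all genes did, with a median of -0.08 (-0.15 to 0.00 when 1 array was left out) and a range from -0.15 (MT1G) to 0.29 (SLC30A1). SLC30A1 was the 1 member whose combination arrays all lay above enzalutamide alone, where 10.5% of all genes showed this, and 0 lay wholly below it, where 10.2% did. ABC294640 alone against DMSO rested on 1 treated array, which was assumed to vary like the other groups. There 5 members lay above 0 and 4 below, the median was 0.04 (-0.04 without DMSO replicate 1, 0.00 without replicate 2 and 0.10 without replicate 3), 0 of 9 members and 0% of all genes passed, and 1 member, MT3, had an unadjusted p below 0.05, where 9.57% of all genes did. The ABC294640 array lay above every DMSO array for 1 member (MT1M), where 26.1% of all genes showed this, and below every DMSO array for 3 (MT2A, MT3 and SLC30A1), where 28.9% did. The interaction of ABC294640 with enzalutamide gave SLC30A1 log2 0.45 (SE 0.25, adjusted p = 0.679) and MT3 0.50 (SE 0.23, adjusted p = 0.606), with 0 of 9 members and 0% of all genes past the threshold and 0 members at an unadjusted p below 0.05, where 8.25% of all genes were past that line. Enzalutamide plus PF-543 against DMSO, with 2.02% of all genes past the threshold, also gave 0 of 9, with MT1E, MT1G and MT1M higher and MT3 lower at an unadjusted p below 0.05, where 18.7% of all genes were past that line. Its arrays all lay above DMSO for MT1E, where 12.1% of all genes showed this, and all below for MT3, where 11.6% did.

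The inhibitors were compared directly at 15 µM and 6 h. With enzalutamide present, PF-543 in place of ABC294640 gave 0 of 9 members past the threshold, where 0.0961% of all genes passed (limma, smallest adjusted p = 0.815). At an unadjusted p below 0.05 there were 0, where 7.21% of all genes were past that line. The groups overlapped for all 9, where 6.43% of all genes did not overlap with PF-543 plus enzalutamide higher and 5.97% with it lower. Differences ran from log2 -0.20 (SLC30A1) to 0.05 (MT1M). All 9 intervals lay within -0.51 to 0.31. MT1E differed there by -0.01 (95% interval -0.28 to 0.26) and MT1X by -0.04 (-0.26 to 0.18). Without enzalutamide, PF-543 against the single ABC294640 array gave 0 of 9, where 0.017% of all genes passed, with MT1E at 0.36 (95% interval -0.03 to 0.75), SLC30A1 at 0.36 (-0.08 to 0.79) and MT2A at 0.18 (-0.10 to 0.46), and 0 at an unadjusted p below 0.05, where 5.64% of all genes were past that line. All PF-543 arrays lay above that array for 4 members (MT1E, MT1F, MT2A and SLC30A1), where 25.2% of all genes showed this, and below it for 0, where 24.6% did. These intervals do not show that the inhibitors act alike.

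**Figure D3:**
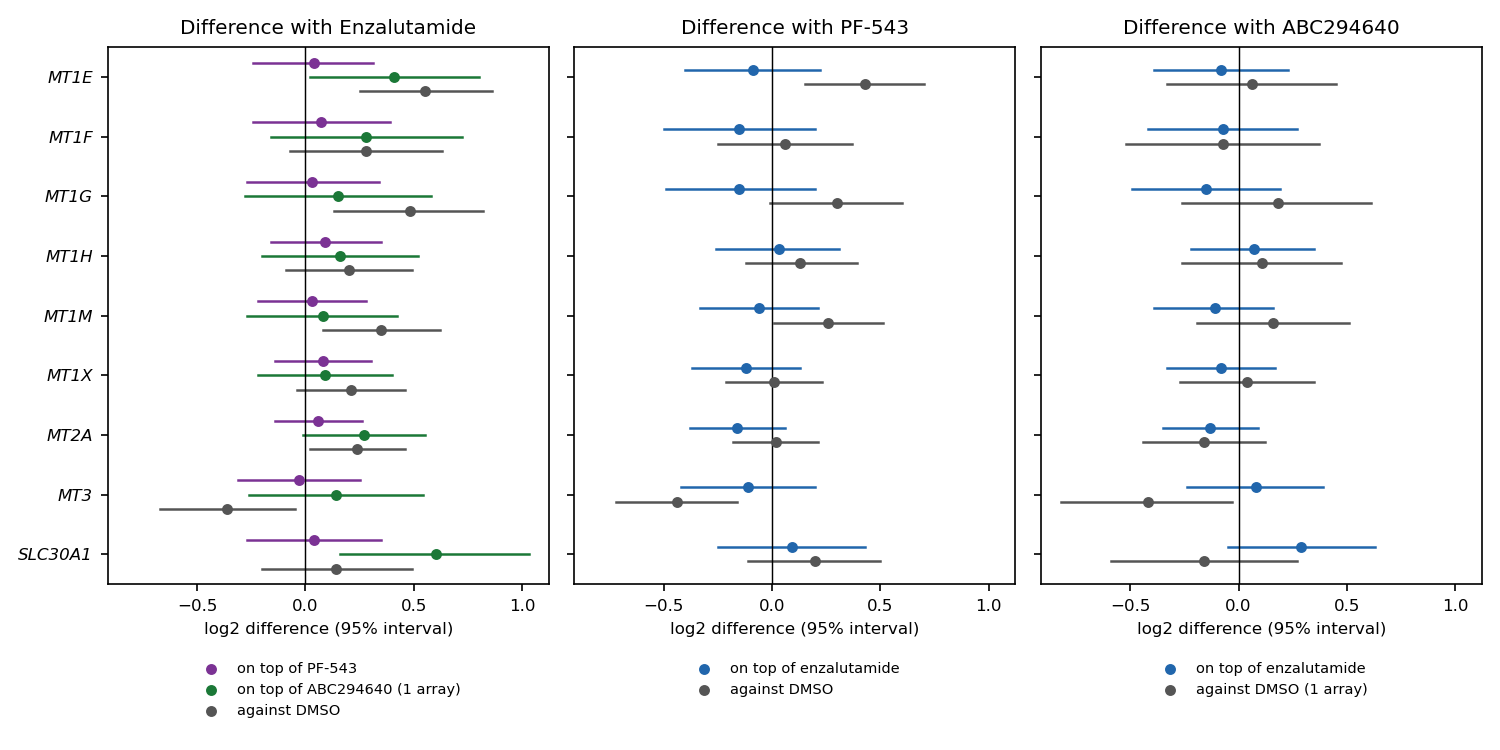
Log2 differences of the 9 members (vertical axis) with their 95% intervals (horizontal axis) for enzalutamide, PF-543 and ABC294640, each against DMSO (grey) and on top of another drug (colours). For MT1E the grey enzalutamide point is at 0.55 and the point on top of PF-543 at 0.04, and for MT3 the grey points lie between -0.44 and -0.36, with the coloured points between -0.11 and 0.14.

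Replicate arrays differed in a way that several metallothioneins shared. DMSO replicate 1 had the lowest value of its group for 7 of the 8 metallothioneins and DMSO replicate 3 the highest for 6. Enzalutamide replicate 1 was above replicate 2 for 7 of 8, and enzalutamide plus ABC294640 replicate 1 was the highest of its group for 6 of 8. MT1G illustrates the size of this spread: the DMSO arrays alone ran from 12.64 to 13.13, as wide as the gap of 0.48 between the enzalutamide and the DMSO means. As a description over the 14 arrays of groups with replicates, deviations from the group mean correlated with a median Pearson r of 0.51 over the 21 pairs of MT1 genes and MT2A, from -0.06 (MT1E with MT1H) to 0.88 (MT1X with MT2A). MT1F and MT1X had r = 0.87 and MT1G and MT1X r = 0.86. For SLC30A1 the median r over its 8 pairs with metallothioneins was -0.06, and for MT3 with the other 7 it was 0.36. The sequences of these paralogues are close and their probe sets may cross-hybridise, so a shared deviation in RNA and signal shared by probes cannot be told apart.

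**Figure D4:**
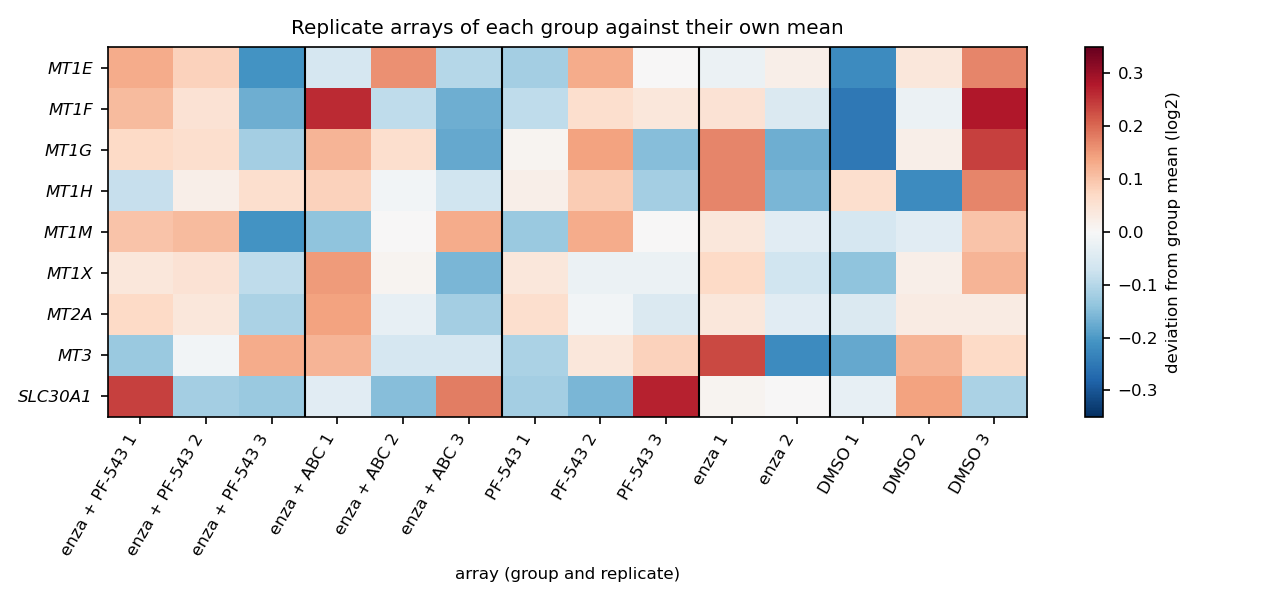
Deviation of each array from the mean of its own group (colour, log2 units) for the 9 members (rows) on the 14 arrays of groups with replicates (columns; the single ABC294640 array has no group mean). In DMSO replicate 1 and DMSO replicate 3 most MT1 genes deviate together, below the mean in replicate 1 and above it in replicate 3.

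Of 9 listed metallothionein relatives 4 were measured, and 0 of 4 passed in any of the 13 comparisons. MT1B, which codes for a further MT1 protein and lies between MT1M and MT1F, averaged 14.54 ± 0.16 with enzalutamide (SD, n = 2) and 14.12 ± 0.24 with DMSO (SD, n = 3), a log2 difference of 0.42 (SE 0.14, limma adjusted p = 0.223). MT1IP, a transcribed pseudogene, differed by 0.41 (adjusted p = 0.222), and MT1L, another transcribed pseudogene, by 0.34 (adjusted p = 0.295). On top of PF-543 these 3 stood at 0.09, 0.07 and 0.07 with enzalutamide. The robust, trended prior called MT1B and MT1L for enzalutamide against DMSO, where 1.5% of all genes passed under it, for enzalutamide plus PF-543, where 6.34% did, and for enzalutamide plus ABC294640, where 3.39% did. It called MT1L for PF-543 against DMSO, where 3.09% of all genes passed. The probe sets of these relatives may cross-hybridise with transcripts of the members, so their values may not be independent of the members' values. The nearest measured genes that flank the cluster and code for other proteins, BBS2 and NUP93, differed from DMSO by -0.08 and 0.00 with enzalutamide (adjusted p = 0.892 and 1); they were chosen by position.

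MTF1, the transcription factor that switches metallothioneins on, averaged 11.80 with enzalutamide and 11.80 with DMSO, and its differences from DMSO ran from -0.10 with ABC294640 to 0.05 with enzalutamide plus ABC294640, none past the threshold. Of the 9 other genes of the SLC30 zinc transporter family, 0 rose, 0 fell and 9 did not pass in every comparison. SLC30A2 stood at log2 -0.38 and SLC30A8 at -0.34 with enzalutamide (limma adjusted p = 0.397 and 0.526). With PF-543, SLC30A8 stood at -0.52 and SLC30A3 at 0.31 (adjusted p = 0.207 and 0.36). SLC30A8 averaged 3.81 with DMSO, below the lowest first quartile of 4.57. SLC30A2 and SLC30A3 averaged 5.15 and 5.57 with DMSO, below the lowest array median of 6.71. The 14 SLC39 transporters, which bring zinc into the cytosol, likewise gave 0 passing. SLC39A14, an importer of zinc and iron, stood at 0.51 with enzalutamide (SE 0.13, adjusted p = 0.134) and at 0.48 with PF-543 (SE 0.11, adjusted p = 0.0822). SLC39A2 stood at -0.37 and -0.39, and it averaged 5.02 with DMSO, also below every array median. Whether SLC30A2, SLC30A3, SLC30A8 and SLC39A2 lay above background was not tested. SLC39A14 passed under the robust, trended prior in the same 4 comparisons with DMSO as MT1L. Of 8 copper handling genes 0 passed, with SLC31A2 at -0.33 and SOD1 at -0.17 with enzalutamide, and ATP7A at 0.20 and SOD1 at -0.20 with PF-543.

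Genes of the NRF2 and heavy metal response, a pathway that answers metals and oxidants alongside MTF1, had 1 of 9 members higher with PF-543 than with DMSO, where 0.565% of all genes passed. It was ME1, malic enzyme, which makes NADPH (log2 0.60, SE 0.11, limma adjusted p = 0.0297), and it failed the threshold when any 1 of the 6 arrays compared was left out. HMOX1, the heme oxygenase that metals also induce, averaged 6.86 with PF-543 and 6.32 with DMSO (log2 0.54, SE 0.13, adjusted p = 0.0804). HMOX1 stood at 6.94 on the single ABC294640 array and averaged 6.77 with enzalutamide plus ABC294640. It averaged 6.81 with enzalutamide plus PF-543 and 6.19 with enzalutamide. On top of enzalutamide it differed by 0.63 with PF-543 and by 0.59 with ABC294640, neither past the threshold. With enzalutamide plus PF-543, 1 of 9 rose against DMSO, SLC7A11, the cystine transporter (log2 0.71, SE 0.12, adjusted p = 0.0146), where 2.02% of all genes passed, and the count was 0 without replicate 2 of that combination. In each of the other 11 comparisons 0 of 9 passed. Heat shock genes gave 0 of 7 passing in each comparison, with HSPA6 at 0.35 and HSPA1A at 0.24 with enzalutamide (adjusted p = 0.308 and 0.408), and HSP90AA1 at 0.25 and HSPA6 at -0.21 with PF-543.

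Of 8 listed steroid receptor targets of the glucocorticoid type, 6 were measured, and FKBP5 and PER1 were not. With enzalutamide against DMSO 2 fell and 0 rose, where 0.311% of all genes passed. They were the transcription factor ZBTB16 (log2 -2.32, limma adjusted p = 4.71e-05) and the EGFR inhibitor ERRFI1 (-0.93, adjusted p = 0.00248). Whether these genes answered to a steroid receptor here, and to which one, was not tested. SGK1, a kinase, stood at -1.13 (adjusted p = 0.16). Its values ran from 4.69 to 6.21 with DMSO and from 4.04 to 4.69 with enzalutamide, and the groups overlapped. The array first quartiles lay at 4.57 to 4.69, and whether SGK1 lay above background was not tested. Without enzalutamide replicate 2 the count was 1. With enzalutamide plus PF-543 against DMSO, ZBTB16 and ERRFI1 fell (-2.08 and -0.72) and TSC22D3, the glucocorticoid-induced leucine zipper, rose (1.17, adjusted p = 0.000451), where 2.02% of all genes passed. With enzalutamide plus ABC294640 against DMSO, ZBTB16 and ERRFI1 fell (-1.95 and -0.76), where 0.701% of all genes passed. On top of PF-543 these 2 genes fell with enzalutamide, where 0.311% of all genes passed (log2 -2.16 and -0.61, adjusted p = 2.2e-05 and 0.0195), where MT2A stood at 0.06, and the count was 1 without replicate 1 or 3 of either group. TSC22D3 rose with PF-543 against DMSO (0.79, adjusted p = 0.0149), where 0.565% of all genes passed and MT2A stood at 0.02, and the count was 0 without DMSO replicate 2, PF-543 replicate 2 or PF-543 replicate 3. With both enzalutamide and PF-543, TSC22D3 was above the combination with ABC294640 (0.84, adjusted p = 0.0292), where 0.0961% of all genes passed and MT2A stood at -0.03. On top of the single ABC294640 array, ZBTB16 fell with enzalutamide (log2 -2.13, adjusted p = 0.00119), where 0.0792% of all genes passed. The count between the combinations was 0 without replicate 2 or 3 of either combination, and also without PF-543 replicate 1 or 3, which enter through the shared spread.

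By pattern over the 15 arrays, the 5 genes outside the members most like the mean of the 8 metallothioneins were MT1B (Pearson r = 0.94, Spearman rho = 0.95), CISH (r = 0.84, rho = 0.76), ZNF484 (r = 0.84, rho = 0.80), C11orf24 (r = 0.84, rho = 0.79) and ARL14EP (r = 0.83, rho = 0.74). Without the 2 arrays farthest from the median of that mean, r was 0.89 for MT1B and 0.60 to 0.79 for the other 4. SLC30A1 was most like MTRFR (r = 0.86, rho = 0.85), FOXK1 (r = 0.84, rho = 0.84), ADAMTS3 (r = 0.83, rho = 0.83), TGFB3 (r = 0.81, rho = 0.90) and NAF1 (r = 0.81, rho = 0.74). The probe set of MT1B may cross-hybridise with transcripts of the members. The arrays share their groups, and these r are the highest values among 17687 genes, so they rank likeness only.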

How the data were processed

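Expression was measured on 15 arrays of C42B cells (per the labels' protocols, 140000 cells per well, 3 days of growth before the 6 h treatment, labelling from 100 ng of RNA). The same protocols give 10% serum for every group. Each probe set has 1 deposited log2 value per array, made by the authors with RMA and Transcriptome Analysis Console 4.02 per the submitters' processing notes. RMA forces arrays towards 1 distribution, which hides a shift common to most genes. The RMA variant, genome build and annotation were not given in the sources used here. Detection calls were not used, and no level was set against array background. The number of arrays limits the precision.

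Of 21448 probe sets, 17709 had 1 gene symbol, 0 several and 3739 none. All 17709 matched RefSeq by Entrez identifier. For 20 genes with several probe sets the brightest was kept, leaving 17687 genes. A mean per group was fitted with limma 3.58.1 in R 4.3.3 to all 15 arrays (9 residual and 3.82 prior degrees of freedom), with 13 contrasts, Benjamini-Hochberg adjustment over all genes and a threshold of 0.05. The test was run on simulated data with known changes added, whose recovery is not reported here. A result of 0 members past the threshold thus does not exclude small differences. Named genes were all measured members, the passing members of each list around them (cell type markers served only to check the cells) and its 2 largest differences for enzalutamide or PF-543 against DMSO, the 5 genes most like the metallothionein mean and SLC30A1 by Pearson r, and genes flanking the cluster, which were added after the data were seen. The members and lists were chosen with earlier results of these data known. Alternatives tried were other normalizations, filters, priors, sample sets, a replicate block and leaving out each array. No label gives a batch. There were 0 identical pairs of arrays. Promoter sequences are RefSeq's. Figures used matplotlib 3.10.9 in Python 3.11.15.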

Additional observations from a re-analysis of the deposited data

How the results depend on the processing

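The number of members past the threshold was recomputed 304 times over 24 alternatives and 13 comparisons, and was 0 each time except 1. The exception was the robust prior with trend for enzalutamide against DMSO, which called 1 member, MT1G, and the cause was not tested. Leaving out any 1 array gave 0 members in every comparison, a range of 0 to 0, and without the ABC294640 array the 4 comparisons that use it gave no value. Of 2736 recomputed member differences, 0 reversed where an interval excluded 0. Array centring, quantile and cyclic loess normalization moved the median of all genes by less than 0.1. Same-numbered replicates did not deviate together over all genes (correlation of deviations above 0.1 in 0 of 26 pairs, from -0.04 to 0.07). This cannot exclude a shared culture or day that moves few genes, and no label gives a batch. With the replicate number as a block, without the ABC294640 array, 0 members passed in the comparisons that could be fitted, and the block changed no member's call. In the other lists it took the count to 0 for NRF2 genes with PF-543 against DMSO and for steroid targets between the combinations, and to 1 for steroid targets with enzalutamide on top of PF-543. Of 2432 recomputed counts over the other lists, 56 moved by over 1.5 times. The robust prior with trend called 1.5% of all genes for enzalutamide against DMSO, where the default prior called 0.311%. Signal over background is unknown, and the single ABC294640 array limits each comparison it enters.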
